A study of Homo sapiens with 6 samples.

Results

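The 10 transcripts described here are usually expressed in the fetus or the placenta, or reappear in tumours: H19, IGF2, IGF2BP1, IGF2BP2, IGF2BP3, LIN28B, HMGA2, ALPP, UCA1 and S100P. They were taken by gene name from a table of 29435 rows, and each name matched a single row. They had been chosen by their measured levels in these same libraries, as transcripts that mark the identity of the line, so the levels are given as a description and are not tested. The samples carry the label HepG2, a human liver tumour line. One group was treated for 4 h with saikosaponin A (SsA), a triterpenoid saponin of Bupleurum root, at 20 µM, and the other was treated for 4 h with the vehicle DMSO. Each group had 3 libraries, both groups were grown in DMEM with serum, and no genetic change is named in the labels for either group. Nothing in the labels says that replicates were separate cultures; the spread behind each p-value may therefore be technical.

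H19 is a long noncoding RNA transcribed from the maternal chromosome, and the neighbouring IGF2 gene, which encodes a fetal growth factor, is normally transcribed from the paternal one. The 3 IGF2BP proteins bind messenger RNAs, IGF2 mRNA among them, and affect their stability and translation. LIN28B blocks the maturation of let-7 microRNAs, and let-7 represses HMGA2, which encodes a chromatin protein, as well as LIN28B and IGF2BP transcripts. ALPP encodes placental alkaline phosphatase, S100P a calcium-binding protein first purified from placenta, and UCA1 a long noncoding RNA found in bladder cancer.

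The let-7 link can be read from the sequences, which show how 5 of the coding transcripts carry the complement of a single microRNA seed in their 3′UTR. The mature let-7 sequences and the 2 microRNAs cut from H19 are from RefSeq (GRCh38.p14), 5′ to 3′, with the seed (bases 2 to 8) in capitals. Mature microRNAs were not measured, because the libraries were made from polyadenylated RNA. The let-7 pair share 1 seed, and both miR-675 arms have seeds of their own. One copy of let-7a lies at chr22:46112752-46112773 and let-7b at chr22:46113691-46113712, both on the plus strand, and the H19-derived pair at chr11:1996800-1996822 and chr11:1996768-1996787 on the minus strand, inside H19.
hsa-let-7a-5p: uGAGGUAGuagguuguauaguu
hsa-let-7b-5p: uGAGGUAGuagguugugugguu
hsa-miR-675-5p: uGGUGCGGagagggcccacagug
hsa-miR-675-3p: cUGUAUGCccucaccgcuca

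The let-7 seed match CTACCTC was searched in the sense strand of the 3′UTR of the GENCODE 29 transcript (GRCh38) with the most matches. HMGA2, IGF2BP1 and LIN28B had 4 matches each, in 3′UTRs of 3003, 6206 and 4549 nt. IGF2BP2 and IGF2BP3 had 1 match each, in 1792 and 2397 nt, and ALPP, IGF2 and S100P had 0. The noncoding H19 and UCA1 were not searched. Of the 10011 coding rows tested below, 14.9% had at least 1 match. A match is a string of letters and is not evidence of a working site. The match nearest the stop codon is printed with its flank in 30-base windows, match in capitals; the windows are at chr3:185644220-185644249 (minus strand) for IGF2BP2, chr6:105078805-105078834 (plus) for LIN28B, chr7:23311795-23311824 (minus) for IGF2BP3, chr12:65963291-65963320 (plus) for HMGA2 and chr17:49051054-49051083 (plus) for IGF2BP1. In each of the 5 windows the match is followed by an A.
IGF2BP2: cgagaaaaacacacagaagaagCTACCTCa
LIN28B: ttcctttacccggttgcaaagtCTACCTCa
IGF2BP3: ttaaacgtgcatttttactcaaCTACCTCa
HMGA2: agggggcgccaacgttcgatttCTACCTCa
IGF2BP1: gcaatgctgtgtgcgaagtaaaCTACCTCa

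Total counts ranged from 58955482 to 69567633 in SsA libraries and from 57768359 to 74912492 in DMSO libraries, and the 10 transcripts took 1.004% to 1.13% of them. SsA replicate 1 and DMSO replicate 3 stood apart: mitochondrially encoded genes took 18.8% and 14.9% of their counts, against 7.62% and 8.28% in the other SsA libraries and 6.36% and 6.19% in the other DMSO libraries. Hepatocyte markers went against the label: 9 of the 12 with a row averaged below 0.1 FPKM (fragments scaled to transcript length and library size, the deposited unit of level), among them HNF4A, APOA1 and TF, while CPS1 averaged 156 FPKM. The hepatocyte list named 22 genes, and 2 of the 12 rows averaged at least 1 FPKM. The hepatoblast and fetal liver list named 10, of which 7 had a row. Of these 7, 3 averaged at least 1 FPKM, with KRT18 highest (416 FPKM), and 2 were below 0.1. The trophoblast list named 18, of which 8 had a row. Of these 8, KRT7 (339 FPKM), ALPG and TFAP2C reached 1 FPKM, and 4 were below 0.1. Lists for other cell types also had abundant members, such as SFN of keratinocytes (156 FPKM) and VIM of fibroblasts (121). The endothelial and leukocyte lists had 0 rows at 1 FPKM or more. The transcripts are therefore described as those of cells labelled HepG2. Fewer cells expressing a transcript and less of it per cell cannot be told apart in bulk RNA.

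The 10 transcripts ranged from 2243 FPKM, for H19 in DMSO replicate 1, to 0 for LIN28B. H19 came first at a mean of 2027 FPKM over the 6 libraries, rank 15 of all rows, with only 3 rows above it that were not mitochondrially encoded. ALPP followed at 801 FPKM (rank 26). UCA1 at 208 FPKM and S100P at 199 FPKM had ranges that overlapped widely, so their order is not resolved. IGF2BP3 (9.29 FPKM) lay above IGF2BP1 (5.19) and IGF2BP2 (4.32), whose ranges also overlapped. IGF2 (0.115 FPKM), HMGA2 (0.0323) and LIN28B (0.00096) were at or below 0.200 FPKM in each library.

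**Figure D1:**
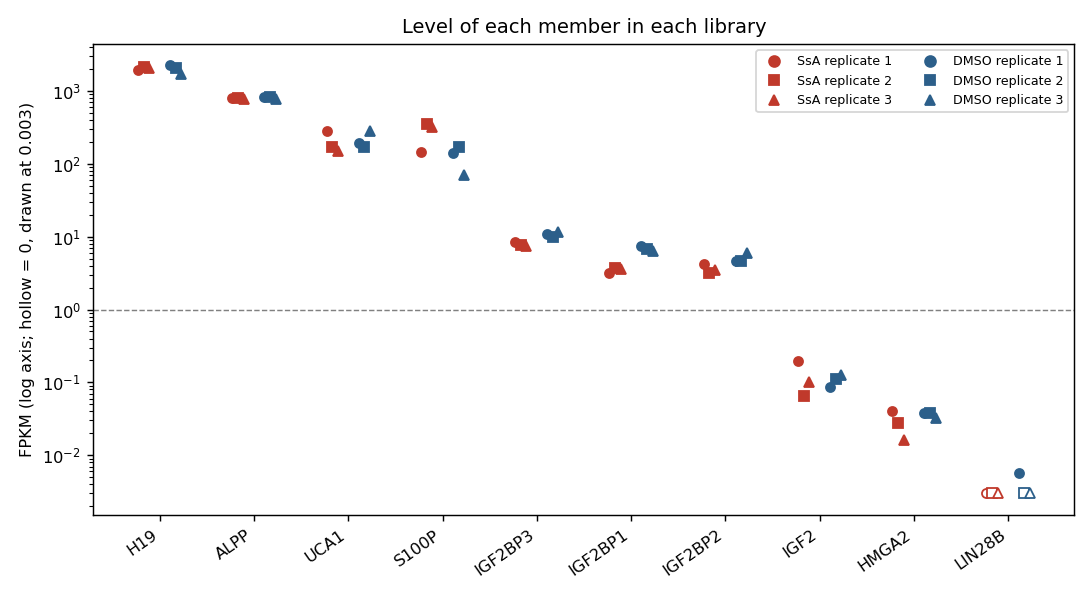
FPKM of the 10 transcripts (log axis) in each SsA library (red, left) and DMSO library (blue, right), ordered by mean level; hollow symbols are values of 0 and the dashed line is 1 FPKM. H19, ALPP, UCA1 and S100P lie above 60 FPKM, the IGF2BP genes between 3 and 12, and IGF2, HMGA2 and LIN28B below the line.

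Between the treatments, S100P was 2.42-fold higher after SsA and IGF2BP1 fell to 0.573 of its DMSO level, and the other 5 testable transcripts did not pass. Rows reaching 1 FPKM in 3 or more of the 6 libraries were tested on counts with edgeR's quasi-likelihood test and called at a Benjamini-Hochberg adjusted p below 0.05. This gave 11427 tested rows and 7 of the 10 transcripts. Of these, 2 of 7 were called, against 53.8% of all tested rows: 1 of 7 higher, against 25.9%, and 1 of 7 lower, against 27.9%. Their median log2 fold change was 0.03, equal at this rounding to the 0.03 of all tested rows. In scaled counts relative to library size (CPM) the SsA and DMSO libraries did not overlap for 4 of 7 (H19, ALPP, S100P and IGF2BP1), against 62.8% of all tested rows. With the 2 libraries of high mitochondrial share left out, leaving 2 against 2, 3 of the 7 were called higher (H19, ALPP and S100P), against 33.3% of all tested rows, and 3 lower (the IGF2BP genes), against 34.5%.

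Transcript length matters for reading these values. Across the 11382 tested rows with a length, log2 fold change fell with the length of the longest GENCODE 29 transcript (Spearman −0.636, a description across genes, which are not independent replicates; slope −0.24 per doubling). A fit with a length offset in each library called 31% of all tested rows (15.7% higher and 15.3% lower), and of the 7 transcripts 0 higher and 1 lower. In that fit the slope was 0.068 per doubling, so a smaller trend of the opposite sign remained. Length-corrected values of short transcripts, such as S100P, and of long ones should be read with that limit. Among rows of 1068 to 1755 nt, which include S100P (1279 nt), the median log2 fold change was 0.50 with quartiles of 0.31 and 0.69, and S100P at 1.27 lay above them. Among rows of 7265 nt or more, which include IGF2BP1 (8274 nt), the median was −0.64 with quartiles of −0.999 and −0.29, and IGF2BP1 at −0.80 lay between them.

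**Figure D2:**
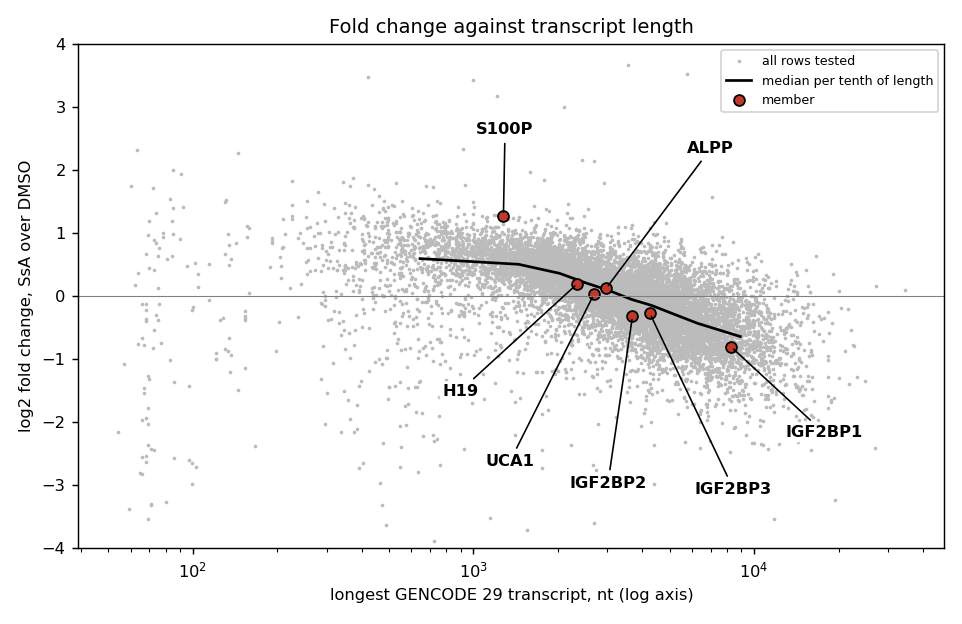
Log2 fold change (SsA over DMSO) of tested rows against the length of their longest GENCODE 29 transcript (log axis), with the median of 10 equal length classes as a line and the 7 tested transcripts in red; 4 rows fall outside the axis. S100P lies above the line, and H19, UCA1 and the IGF2BP genes lie below it.

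**Figure D3:**
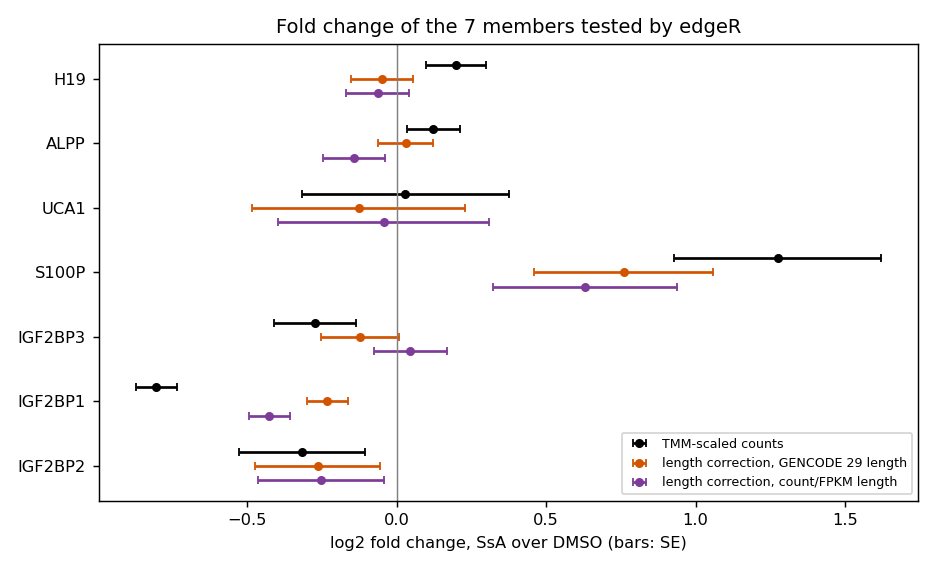
Log2 fold change (SsA over DMSO) with its SE for the 7 tested transcripts on TMM-scaled counts (black) and after length correction with GENCODE 29 length (orange) or with the length implied by count over FPKM (purple). IGF2BP1 stays below 0 and S100P above 0 in all 3 fits, and both are nearer 0 after correction.

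H19 (ENSG00000130600, chr11:1995176-2001470, minus strand, GRCh38) was abundant in both groups. It had 1947, 2145 and 2046 FPKM in SsA libraries and 2243, 2094 and 1686 FPKM in DMSO libraries, which overlapped. On the CPM scale it had 7521, 7337 and 7085 in SsA libraries and 6823, 6353 and 5955 in DMSO libraries. Each SsA library was above each DMSO library there, but the log2 fold change of 0.20 ± 0.10 (SE) did not pass with edgeR (adjusted p = 0.136), and it was −0.05 after length correction (adjusted p = 0.752). It passed with DESeq2 (0.20, adjusted p = 0.035) and without the 2 libraries of high mitochondrial share (edgeR, 0.10, adjusted p = 0.0297). MRPL23-AS1, the nearest tested row at 5.26 kb, had a log2 fold change of −0.30 ± 0.22 (edgeR adjusted p = 0.278).

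IGF2 (ENSG00000167244, chr11:2129112-2141238, minus strand) lies 127.6 kb from H19 and was nearly absent. Its counts were 87, 33 and 49 in SsA libraries and 45, 59 and 55 in DMSO libraries, or 0.200, 0.0657 and 0.103 FPKM against 0.0867, 0.110 and 0.127 FPKM. The groups overlapped, with SsA replicate 1 highest. It fell under the filter and was not tested; with no filter edgeR gave a log2 fold change of 0.41 ± 0.48 (adjusted p = 0.595). The ratio of H19 to IGF2 in FPKM was 9758, 32670 and 19960 in SsA libraries and 25880, 18980 and 13250 in DMSO libraries. Every library thus had at least 9758 times more H19 than IGF2 per length, although the IGF2 side rests on 33 to 87 counts. GENCODE 29 extends IGF2 8365 bp further 5′ than the deposited span.

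Of 35 other imprinted genes listed, 26 had a row, and 14 were tested; 5 rose and 6 fell, with a median log2 fold change of 0.08, against 25.9% higher, 27.9% lower and a median of 0.03 over all tested rows. The same background applies to each further list, and after length correction it is 15.7% higher, 15.3% lower and a median of 0.00. Those that rose included GNAS, which encodes a G protein subunit, by 0.40 ± 0.13 (edgeR adjusted p = 0.0365) and CDKN1C, a cyclin-dependent kinase inhibitor in the same imprinted region of chromosome 11 as H19, by 0.78 ± 0.13 (adjusted p = 0.00277), and SNRPN, which encodes a splicing protein, by 0.44 ± 0.06 (adjusted p = 0.00132). IGF2R, the receptor that clears IGF2, fell by 1.07 ± 0.06 on the log2 scale (adjusted p = 7.77e-05). After length correction 3 of 14 were called higher and 0 lower. The 3 were GNAS (0.51, adjusted p = 0.0217), CDKN1C (0.42, adjusted p = 0.032) and UBE3A, a ubiquitin ligase gene named after its values were seen, which had been called lower before correction (−0.36) and was at 0.28 after it (adjusted p = 0.00903). SNRPN (0.084, adjusted p = 0.406) and IGF2R (−0.19, adjusted p = 0.114) lost their calls.

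Among the genes that receive and bind IGF ligands, 11 of 20 rows averaged at least 1 FPKM and 5 were below 0.1. Of the 20 receptor, binding-protein and adaptor genes with a row, 13 were tested; 4 rose and 7 fell, with a median of −0.31. IGF1R, the signalling receptor, fell by 1.004 ± 0.07 (edgeR adjusted p = 0.00012). IGFBP7, a secreted binding protein, rose by 0.83 ± 0.06 (adjusted p = 0.000116). After length correction 2 were called higher and 4 lower, with a median of −0.05; IGFBP7 was then at 0.35 (adjusted p = 0.0063) and IGF1R at −0.20 (adjusted p = 0.0324).

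The IGF2BP genes were each lower in mean after SsA, and only IGF2BP1 passed. IGF2BP1 (ENSG00000159217, chr17:48997385-49056145, plus strand) had 3.16, 3.75 and 3.62 FPKM in SsA libraries and 7.51, 6.74 and 6.34 FPKM in DMSO libraries. Its counts were 2120, 2893 and 2614 in SsA libraries and 5919, 5474 and 4171 in DMSO libraries, which on the CPM scale averaged 41.7 ± 1.03 and 72.8 ± 4.23 (SD, n = 3 each). The groups were far apart and the libraries within each were close. The log2 fold change was −0.80 ± 0.07 by SE, with an edgeR adjusted p of 0.000218. After length correction it was −0.23 ± 0.07 (adjusted p = 0.0406), and with a replicate block added to that correction −0.23 (adjusted p = 0.141). Comparing the libraries of high mitochondrial share with each other, SsA replicate 1 had 0.546 of the level of DMSO replicate 3, and among the other 4 libraries the ratio was 0.586.

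IGF2BP3 (ENSG00000136231, chr7:23310209-23470491, minus strand) had 8.44, 7.75 and 7.54 FPKM in SsA libraries and 10.7, 9.81 and 11.5 FPKM in DMSO libraries. The groups did not overlap in FPKM but did in CPM, with 96.1, 78.2 and 77.1 in SsA libraries and 96.4, 87.8 and 119 in DMSO libraries. The log2 fold change was −0.27 ± 0.14 (edgeR adjusted p = 0.131), and it passed without the 2 libraries of high mitochondrial share (−0.27, adjusted p = 0.00251). After length correction the log2 fold change was −0.12 (edgeR adjusted p = 0.505). MALSU1, on the other strand, overlaps the 3′ end of IGF2BP3 and rose by 0.59 ± 0.07 (adjusted p = 0.000621); the libraries mark strand, but the sources used here do not state whether the counting used it.

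IGF2BP2 (ENSG00000073792, chr3:185643130-185825042, minus strand) had 4.19, 3.18 and 3.47 FPKM in SsA libraries and 4.58, 4.56 and 5.95 FPKM in DMSO libraries. On the CPM scale it had 29.8, 20.1 and 22.2 in SsA libraries and 25.7, 25.5 and 38.7 in DMSO libraries. The CPM values overlapped, with the library of high mitochondrial share highest in each group. The log2 fold change was −0.32 ± 0.21 (edgeR adjusted p = 0.236), and −0.30 without those 2 libraries (adjusted p = 0.0119). After length correction it was −0.26 (edgeR adjusted p = 0.374).

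Summed over the 3 genes, IGF2BP transcripts had 15.8, 14.7 and 14.6 FPKM in SsA libraries and 22.8, 21.1 and 23.8 FPKM in DMSO libraries. IGF2BP3 made up 53.4%, 52.8% and 51.5% of the sum in SsA libraries and 47.1%, 46.5% and 48.3% in DMSO libraries. IGF2BP1 made up 20.0%, 25.6% and 24.8% in SsA libraries and 32.9%, 31.9% and 26.7% in DMSO libraries. The sums and both shares did not overlap between the groups; they are descriptions on the deposited scale, with no length correction. The longest transcripts of the 3 genes shared 0.0% of their 50-base windows, so reads are not split between them.

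The genes that work with IGF2BP proteins, or read and write N6-methyladenosine on RNA, had 26 rows for 25 genes, since MATR3 has a pair of rows, neither called, and every row was tested. Of these 2 rose and 8 fell, with a median log2 fold change of −0.13; YBX1, an RNA-binding partner, rose by 0.54 (edgeR adjusted p = 0.0105), and RBM15 (−0.84) and ZC3H13 (−0.81), cofactors of the methyltransferase, and YTHDF3 (−0.53), a reader of the mark, fell. After length correction 7 were higher and 3 lower, with a median of 0.06; RBM15 (−0.69, adjusted p = 0.00141) and YTHDF3 (−0.24, adjusted p = 0.0466) were among the 3, while YBX1 (0.079, adjusted p = 0.739) and ZC3H13 (−0.26, adjusted p = 0.127) lost their calls. Without the 2 libraries of high mitochondrial share 5 of 26 were higher, against 33.3% of all tested rows, and 14 lower, against 34.5%. Of 17 transcripts known to be bound by IGF2BP proteins, 2 rose and 4 fell (median −0.14), PPP1R9B (−0.73) and EIF4EBP2 (−0.71) among those that fell, and ACTB, the most abundant, was at 0.43 (adjusted p = 0.0687). After length correction 4 were higher and 2 lower (median 0.00); without those 2 libraries 5 were higher, against 33.3% of all tested rows, and 9 lower, against 34.5%.

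LIN28B and HMGA2, both let-7 targets, were too low to be tested. LIN28B (ENSG00000187772, chr6:104936616-105080479, plus strand) had 0, 0 and 0 counts in SsA libraries and 3, 0 and 0 in DMSO libraries. A count of 0 allows up to 3 counts, or 0.0401 to 0.0519 CPM of library total across the 6 libraries, for counting error only. No fold change is given, since both groups were at or under that floor.

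HMGA2 (ENSG00000149948, chr12:65824460-65952536, plus strand) had 44, 34 and 20 counts in SsA libraries and 48, 51 and 34 in DMSO libraries. This corresponds to 0.0408, 0.0279 and 0.0161 FPKM in SsA libraries and 0.0376, 0.0382 and 0.0330 FPKM in DMSO libraries, and the groups overlapped. With no filter edgeR gave a log2 fold change of −0.11 ± 0.44 (adjusted p = 0.900). GENCODE 29 extends HMGA2 13759 bp beyond the 3′ end of the deposited span, and the let-7 match printed above lies in that stretch, so the count may cover only the nearer part of the gene. The related HMGA1, with a mean of 198 FPKM, was at 0.15 ± 0.20 (adjusted p = 0.552).

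Of 20 rows for the LIN28 and let-7 machinery, 15 were tested; 3 rose and 9 fell, against 25.9% and 27.9% of all tested rows, with a median log2 fold change of −0.40. AGO2, the slicing Argonaute, fell by 1.28 ± 0.07 (edgeR adjusted p = 6.40e-05), DICER1, which cuts microRNA precursors, by 1.07 ± 0.11 (adjusted p = 0.000351) and DGCR8, a partner of DROSHA, by 0.79 ± 0.10 (adjusted p = 0.000812). HNRNPA1, which binds let-7 precursors, rose by 0.40 ± 0.14 (adjusted p = 0.0491). After length correction 1 was higher and 5 lower, against 15.7% and 15.3% of all tested rows, with a median of −0.23. AGO2 (−0.38, adjusted p = 0.0042), DICER1 (−0.36, adjusted p = 0.0159) and DGCR8 (−0.58, adjusted p = 0.0062) were still called lower. HNRNPA1 was still called higher (0.52, adjusted p = 0.0333). Of 19 other let-7 targets tested, 4 rose and 7 fell (median −0.10); CDK6 (−0.95) and E2F2 (−0.95), both cell-cycle genes, fell. After length correction 2 of the 19 were higher and 6 lower (median −0.17), E2F2 among them at −0.67 (adjusted p = 0.00243), while CDK6 was at −0.17 and did not pass (adjusted p = 0.0516).

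ALPP (ENSG00000163283, chr2:232378724-232382889, plus strand) held its level in FPKM more closely than the other abundant transcripts here. It had 788, 795 and 783 FPKM in SsA libraries and 836, 835 and 766 FPKM in DMSO libraries, which overlapped. On the CPM scale it averaged 2797 ± 188 in SsA libraries and 2570 ± 96.2 in DMSO libraries (SD, n = 3 each), with no overlap. The log2 fold change was 0.12 ± 0.09 (edgeR adjusted p = 0.278), and 0.03 after length correction (adjusted p = 0.838). It passed without the 2 libraries of high mitochondrial share, at 0.07 (edgeR adjusted p = 0.030).

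ALPP lies next to the germ-cell gene ALPG, 23.95 kb away, and the intestinal gene ALPI. ALPP exceeded ALPG in FPKM by 17.9, 16.8 and 18.99 times in SsA libraries and by 16.1, 14.9 and 17.3 times in DMSO libraries. It exceeded ALPI by 20.9, 25.9 and 27.0 times in SsA libraries and by 29.8, 32.2 and 27.7 times in DMSO libraries. ALPG (−0.03 ± 0.08, edgeR adjusted p = 0.810) and ALPI (0.42 ± 0.16, adjusted p = 0.0540) did not pass. ALPG shares 29.3% of its 50-base windows with ALPP and ALPI shares 1.5%, so the split of reads between ALPP and ALPG is uncertain.

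S100P (ENSG00000163993, chr4:6693878-6697170, plus strand) was the transcript that rose. Its counts were 4772, 13066 and 11354 in SsA libraries and 5382, 6685 and 2248 in DMSO libraries. On the CPM scale it had 91.5, 193 and 181 in SsA libraries and 69.1, 83.1 and 40.1 in DMSO libraries. The CPM groups did not overlap, but the libraries of high mitochondrial share were the lowest in both groups. In FPKM it had 146, 347 and 322 in SsA libraries and 140, 168 and 69.9 in DMSO libraries, where SsA replicate 1 fell inside the DMSO range.

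The CPM means were 155 ± 55.5 in SsA libraries and 64.1 ± 21.9 in DMSO libraries (SD, n = 3 each), a log2 fold change of 1.27 ± 0.35 by SE, with an edgeR adjusted p of 0.0187. SsA replicate 1 had 2.28 times the level of DMSO replicate 3, and among the other 4 libraries the ratio was 2.46. The call was lost after length correction (0.76 ± 0.30, adjusted p = 0.0967), without SsA replicate 2 (1.09, adjusted p = 0.0640) and without SsA replicate 3 (1.15, adjusted p = 0.0609). The value stayed above 0 under all 17 alternatives tried, at 0.63 to 1.54, and IGF2BP1 stayed below 0 under all 17, at −1.10 to −0.23. The call itself was lost in 8 of the 17 for S100P and in 1 of the 17 for IGF2BP1.

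Other S100 genes, which encode small calcium-binding proteins, moved with S100P. Of 8 tested, 6 rose and 0 fell, against 25.9% higher and 27.9% lower over all tested rows, and the median log2 fold change was 0.78. S100A6 rose by 1.20 ± 0.38 (edgeR adjusted p = 0.0324), S100A13 by 1.08 ± 0.30 (adjusted p = 0.0196), S100A4 by 0.93 ± 0.32 (adjusted p = 0.0448) and S100A11 by 0.63 ± 0.12 (adjusted p = 0.00397). S100A10 rose by 0.68 ± 0.13 (adjusted p = 0.00476) and S100A16 by 0.57 ± 0.08 (adjusted p = 0.00137). S100A2 (0.88, adjusted p = 0.180) and S100A3 (0.51, adjusted p = 0.151) did not pass. The list is of short transcripts, with a median length of 927 nt against 3348 nt for all tested rows. After length correction 0 of 8 were called in either direction and the median was 0.23, and without the 2 libraries of high mitochondrial share 7 of 8 were called higher, against 33.3% of all tested rows.

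**Figure D4:**
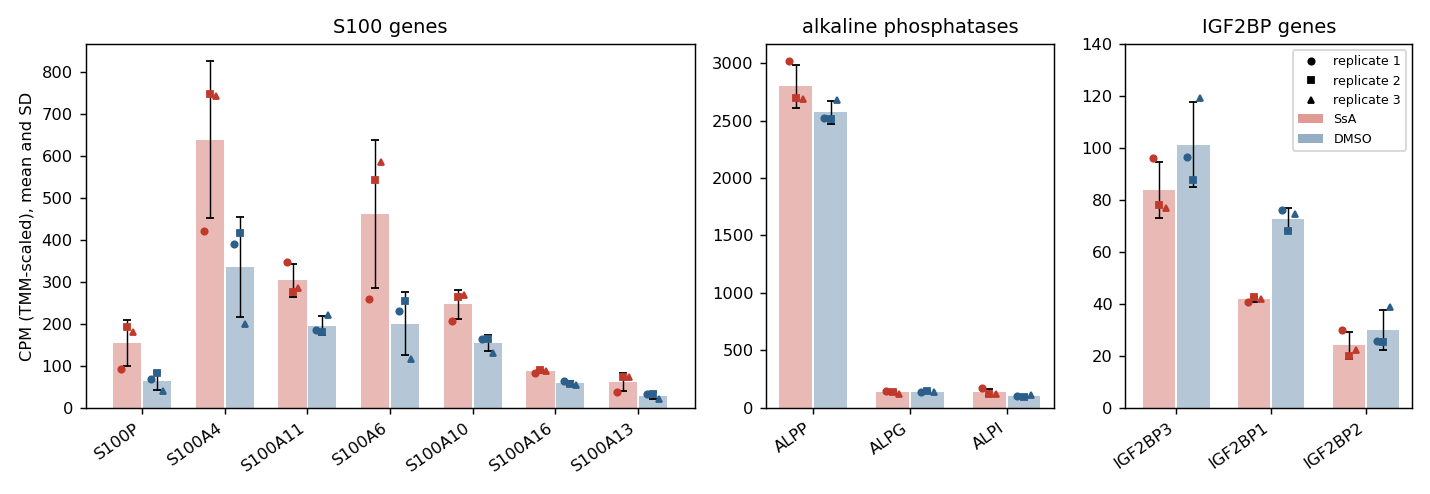
CPM in SsA (red) and DMSO (blue) libraries for S100P and the 6 other S100 genes called higher, for ALPP, ALPG and ALPI and for the 3 IGF2BP genes; bars are means of 3 libraries, error bars SD and symbols replicates. Every S100 gene drawn, ALPP, ALPI and IGF2BP1 show no overlap between the groups, as do 62.8% of all tested rows. The 6 other S100 genes were drawn because they were called, and the tested S100A2 and S100A3, not drawn, overlap. SsA replicate 1 and DMSO replicate 3 are the lowest of their groups for each S100 gene drawn except S100A11.

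UCA1 (ENSG00000214049, chr19:15828206-15836327, plus strand) varied between libraries more than between treatments. It had 279, 168 and 148 FPKM in SsA libraries and 195, 172 and 285 FPKM in DMSO libraries. On the CPM scale it had 1547, 824 and 736 in SsA libraries and 852, 751 and 1444 in DMSO libraries. The groups overlapped, and the high library of each group was the one with the high mitochondrial share. The log2 fold change was 0.03 ± 0.35 (edgeR adjusted p = 0.951), and it was below 0 under 11 of 17 alternatives. Between the high libraries SsA replicate 1 had 1.07 times the level of DMSO replicate 3, and among the other 4 libraries the ratio was 0.974.

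**Figure D5:**
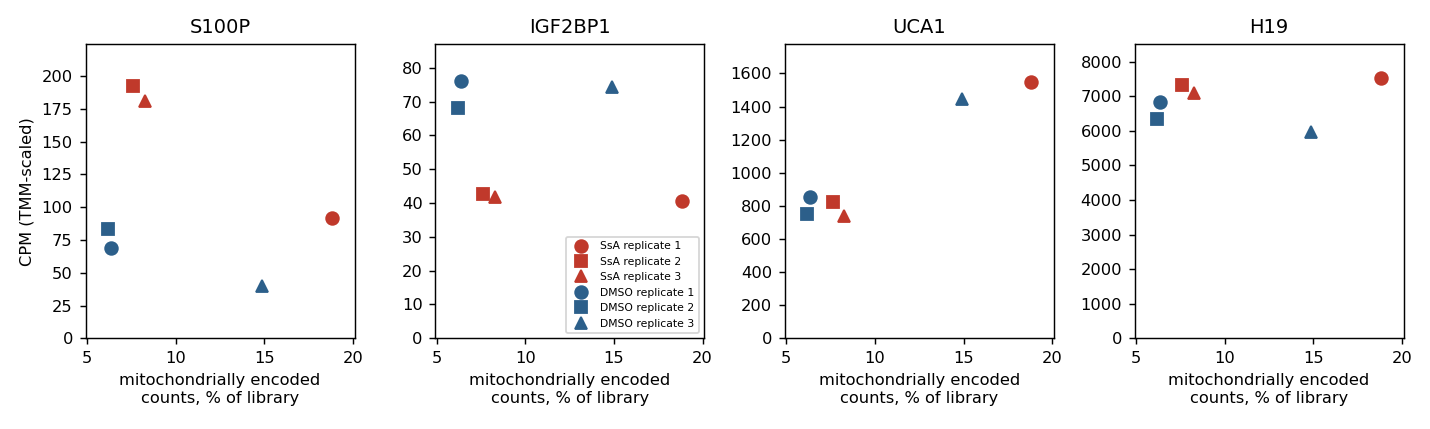
CPM of S100P, IGF2BP1, UCA1 and H19 in SsA (red) and DMSO (blue) libraries against the percentage of counts from mitochondrially encoded genes. UCA1 is highest and S100P lowest, within each group, in the library of high mitochondrial share. The groups do not overlap for S100P, IGF2BP1 and H19, and they overlap for UCA1.

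The part of the mitochondrial share in the values of UCA1, S100P and IGF2BP2 was not tested. Ratios of transcripts within a library moved with it: S100P relative to UCA1 in FPKM was 0.521, 2.06 and 2.17 in SsA libraries and 0.715, 0.976 and 0.245 in DMSO libraries. H19 relative to ALPP varied less, at 2.47, 2.70 and 2.61 in SsA libraries and 2.68, 2.51 and 2.20 in DMSO libraries.

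Outside the 10 transcripts, only some placental and trophoblast genes reached the level needed for testing. Of 58 placental and trophoblast genes listed, 28 had a row, 12 of these averaged below 0.1 FPKM, and 11 were tested. KRT7, a simple-epithelium keratin, rose by 0.42 ± 0.12 (edgeR adjusted p = 0.0215), INSL4, a placental insulin-like peptide, by 1.01 ± 0.13 (adjusted p = 0.000907) and PLAC8 by 0.62 ± 0.09 (adjusted p = 0.00161), and VGLL3, a TEAD cofactor, fell by 0.96 ± 0.07 (adjusted p = 0.000148). In all 4 rose and 3 fell, with a median of 0.07, and after length correction 3 were higher and 3 lower. INSL4 (0.66, adjusted p = 0.0151), PLAC8 (0.34, adjusted p = 0.0269) and VGLL3 (−0.25, adjusted p = 0.0213) passed there, and KRT7 did not (0.016, adjusted p = 0.912). Of 25 other oncofetal and reactivated germline genes with a row, 12 averaged below 0.1 FPKM and 10 were tested; 3 rose and 1 fell. CTAG2, a cancer-testis antigen, rose by 1.15 ± 0.31 (adjusted p = 0.0188), and PEG10, a retrotransposon-derived placental gene, fell by 0.63 ± 0.14 (adjusted p = 0.00813). Both lost their calls after length correction, at 0.59 (adjusted p = 0.153) for CTAG2 and −0.19 (adjusted p = 0.266) for PEG10. In that fit 0 were higher and 1 lower, which was the WNT inhibitor DKK1 (−0.39, adjusted p = 0.0393), named after its value was seen. Without the 2 libraries of high mitochondrial share 6 were higher, against 33.3% of all tested rows, and 1 lower, against 34.5%.

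For each tested transcript the row most like it was found by Pearson's r of log2 CPM over the 6 libraries, which share depth and the mitochondrial split; the highest of all other tested rows is high by selection, so r is a description. It was ASCC1 for H19 (0.994), PTMAP2 for ALPP (0.997), CDK16 for UCA1 (0.995) and CCT4 for S100P (0.999). For the IGF2BP genes it was ARHGAP29 for IGF2BP1 (0.999), DDAH1 for IGF2BP2 (0.997) and C2CD2L for IGF2BP3 (0.997). Neighbours on the chromosome did not share the direction of the called transcripts in each case. SNF8, next to IGF2BP1 at 52.54 kb, rose by 0.46 ± 0.08 (edgeR adjusted p = 0.00306), while ZNF652 on its other side fell by 0.48 ± 0.15 (adjusted p = 0.0323). AC091133, on the same strand inside the IGF2BP1 span, was at 0.55 ± 0.34 (edgeR adjusted p = 0.2025). MRFAP1L1, 10.53 kb from S100P, rose by 0.50 ± 0.10 (adjusted p = 0.0055). AC093323, 17.12 kb from S100P on the other side, was at 0.41 ± 0.20 (adjusted p = 0.121).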

How the data were processed

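Polyadenylated RNA was selected, fragmented and made into strand-marking dUTP libraries, per the labels' protocols. The tools named in the submitters' processing notes are StringTie 1.3.4d, HISAT2 2.0.4 and cutadapt 1.9, with the build GRCh38; the sources used here do not give the annotation, the strand setting or the counting step. Per the file headers, each gene has deposited whole-number counts and FPKM in each library; the authors' FPKM is per gene length and library size. Columns marked SA were read as SsA and the others as DMSO.

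TMM-scaled counts were tested with edgeR 4.0.16 (quasi-likelihood, two-sided, Benjamini-Hochberg over 11427 rows, threshold 0.05) for rows with FPKM of at least 1 in 3 of 6 libraries. SE is the absolute log2 fold change over the square root of F. The design file assumed FPKM with limma unless counts were held. CPM is relative to TMM-scaled library size. The biological coefficient of variation was 15.3%. Length correction used a loess of each library's log2 deviations on log2 length (99.6% of tested rows had one) as offset. The scripts were tested on simulated data, in which no library stood apart by its mitochondrial share. The gene names, lists and tests were chosen with earlier results of these data known. The text names the 10 transcripts, per list up to 3 called genes of smallest p and the gene of highest FPKM, all tested S100 and alkaline phosphatase genes, and the row most alike; chromosomal neighbours and the markers HNF4A, APOA1, TF, ALPG and TFAP2C were added after their values were seen. Lists are described by counts and medians, with no test. Intervals and floors cover counting error only. Alternatives were DESeq2 1.42.0, limma 3.58.1 on log2 FPKM (pseudocounts 1 and 0.1) or TPM, filters, length correction, a replicate block and left-out libraries.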

Additional observations from a re-analysis of the deposited data

How the results depend on the processing

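Of the 10 transcripts, 1 was called higher and 1 lower. The higher count was 2 with DESeq2, 0 with limma on log2(FPKM + 1), log2(FPKM + 0.1) or log2(TPM + 1), 0 with either length correction, 0 with block and length correction together, and 3 without SsA replicate 1 and DMSO replicate 3. The lower count was 3, 3 and 2 with limma in the same order, 0 with block and length correction together and 3 without those libraries. Leaving out 1 library at a time gave 0 to 1 higher and 1 to 2 lower. Over all rows, 2956 were higher and 3190 lower. The higher count was 1666 at a mean of at least 5 FPKM, where only 6197 rows were tested in place of 11427. It was 914, 886 and 49 with limma in the same order, 1791 with length correction and 914 with block and length correction. The lower count was 1762, 1749 and 948 for that filter, length correction, and block with length correction, and 3723, 3699 and 2446 with limma in the same order. Without SsA replicate 1 and DMSO replicate 3 it was 3801 higher and 3946 lower. Leaving out 1 library gave 2005 to 3153 higher and 2594 to 3249 lower. Of the rows called with and without length correction, 2546 kept their sign and 138 changed it.

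UCA1 turned below 0 at −0.086 (mean FPKM of at least 5), −0.15, −0.15 and −0.36 (limma, as above), −0.13 and −0.044 (length corrections), −0.15 (block and length) and −0.07 (2 libraries left out), and at −0.077, −0.14 and −0.38 without DMSO replicate 1, DMSO replicate 2 or SsA replicate 1; leaving out 1 library gave −0.38 to 0.36. H19 turned to −0.16 (TPM), −0.049 and −0.064 (length corrections) and −0.049 (block and length), ALPP to −0.042, −0.042 and −0.24 (limma) and −0.14 (count over FPKM length), and IGF2BP3 to 0.045 (count over FPKM length). The median of all rows was −0.11, −0.13 and −0.31 in the limma fits; relative to it, TPM gave S100P 1.21, IGF2BP1 −0.78, H19 0.15 and ALPP 0.07. S100P was called neither by limma on log2(FPKM + 1) (1.10, adjusted p = 0.0909) nor with the count over FPKM length (0.63, adjusted p = 0.145). The cause of each change was not tested.

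Same-numbered libraries deviated from their group means with correlations of −0.45, 0.40 and −0.47. The highest correlation, 0.66, was between SsA replicate 1 and DMSO replicate 3, the libraries of high mitochondrial share. With 3 libraries per group, each deviation depends on those 2 libraries. The correlations therefore do not show whether replicate numbers pair the samples. The replicate block alone left the calls at 1 higher and 1 lower, and 2074 higher and 2542 lower over all rows. The length correction chosen after seeing the data is the one with the length from count over FPKM. The 3 libraries per group limit what smaller differences could be called, and LIN28B, HMGA2 and IGF2 are limited by depth.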
